A study of Mus musculus with 6 samples.

Results

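Imprinted genes are expressed mainly from the chromosome inherited from 1 parent. The choice is set by DNA methylation laid down in the germ line, and the genes lie in clusters where a methylated control region, often with a long non-coding RNA, governs neighbours in cis. Many are active in the brain, where they are known for roles in feeding, growth, maternal behaviour and sleep, and several are strongest in the hypothalamus. The 34 genes described here were taken from a list of imprinted genes by name, and 33 of them were found among the 23057 genes of the deposited table. Mirg, a non-coding host of microRNAs, was not found under that symbol or its RefSeq synonyms and was not analysed here.

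RNA came from dissected brains, labelled whole brain, of C57BL/6 mice perfused with PBS. One group of 3 mice had been cranially irradiated with X-rays to a total of 10 Gy and the other group of 3 mock-irradiated, and all were taken at 30 days. No transgene, mutation or further treatment is named for either group, and neither age nor sex is given in the sources used here. Values are FPKM, which is reads per kilobase of transcript scaled to the library's mapped total, so levels of different genes can be compared on that scale. The strain is inbred and the table has 1 value per gene and library, so which parental allele the RNA came from was not measured.

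Of the 34 genes, 29 averaged at least 0.5 FPKM across all 6 libraries, which was the condition for testing. Rtl1, Kcnq1ot1 and Peg12 were in the table below that level, and Phlda2 was listed at 0 in every library. The test was limma on log2(FPKM + 0.5), fitted to 14585 genes, and a gene with a Benjamini-Hochberg adjusted p under 0.05 is called higher or lower. Fold changes are on that log2 scale, on which changes of low genes come out too small. The FPKM summed to between 472450 and 625782 per library, and no depth could be recovered from the low values.

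Markers of several brain regions differed between the groups. Markers of cerebellum, 18 of 18 tested, summed to 1539 to 2281 FPKM in mock against 214 to 345 FPKM after irradiation, and Gabra6 was listed at 0 in 1 irradiated library. Markers of hindbrain and spinal cord, 10 of 10 tested, summed to 104 to 115 FPKM in mock against 2.89 to 4.99 FPKM after irradiation, where Hoxb6, Hoxd4 and Hoxb8 were each listed at 0 in at least 1 library. Telencephalon markers, 12 of 12 tested, summed to 260.2 to 441 FPKM in mock against 542 to 959 FPKM after irradiation, with mock 2 the lowest. Oligodendrocyte markers summed to 5530.3 to 6648 and 2589 to 4554 FPKM, while pan-neuronal markers overlapped at 4157 to 5169.5 and 4513 to 5355 FPKM. Sums of midbrain dopamine markers overlapped at 137 to 193 and 143 to 222 FPKM, though 4 of 9 tested were called, all higher (44.4%, beside 7.72% of all genes). Sums of choroid plexus markers overlapped at 955 to 2203 and 810 to 1053 FPKM, with 1 of 10 tested called, lower (10.0%). Fewer cells of a type and less RNA per cell cannot be told apart in such bulk samples, and for each imprinted gene below, irradiation and a difference in regional makeup cannot be told apart.

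Nnat rose, Airn and Mkrn3 fell, and the remaining 26 tested genes were not called. Of all 29, 12 had a log2 change within 0.2 of 0, while the intervals of others, such as Peg3 and Ube3a, were wide and do not show that they differed little. The called genes were 3 of 29, or 10.3%, beside 7.72% of all genes tested that were called in either direction (3.48% higher and 4.24% lower), so the share of imprinted genes called was near the background. The median log2 change of the 29 was -0.02, the same as over all genes tested (-0.02), and the median size of change regardless of sign was 0.24 beside 0.28. In 5 of the 29 the groups did not overlap (17.2%, beside 31.5% of all genes), with Nnat and Magel2 higher and Airn, Mkrn3 and H19 lower. Of these, Magel2 and H19 did not pass the test. At a limma p under 0.05 before adjustment, 2 of the 29 were higher and 3 lower, beside 1705 higher and 2033 lower of all 14585 genes tested. With mock 2, which had the least telencephalon signal, and irradiated 1, which departed with transcript length, both left out, 1 imprinted gene was higher and 2 were lower, the same 3 genes.

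**Figure D1:**
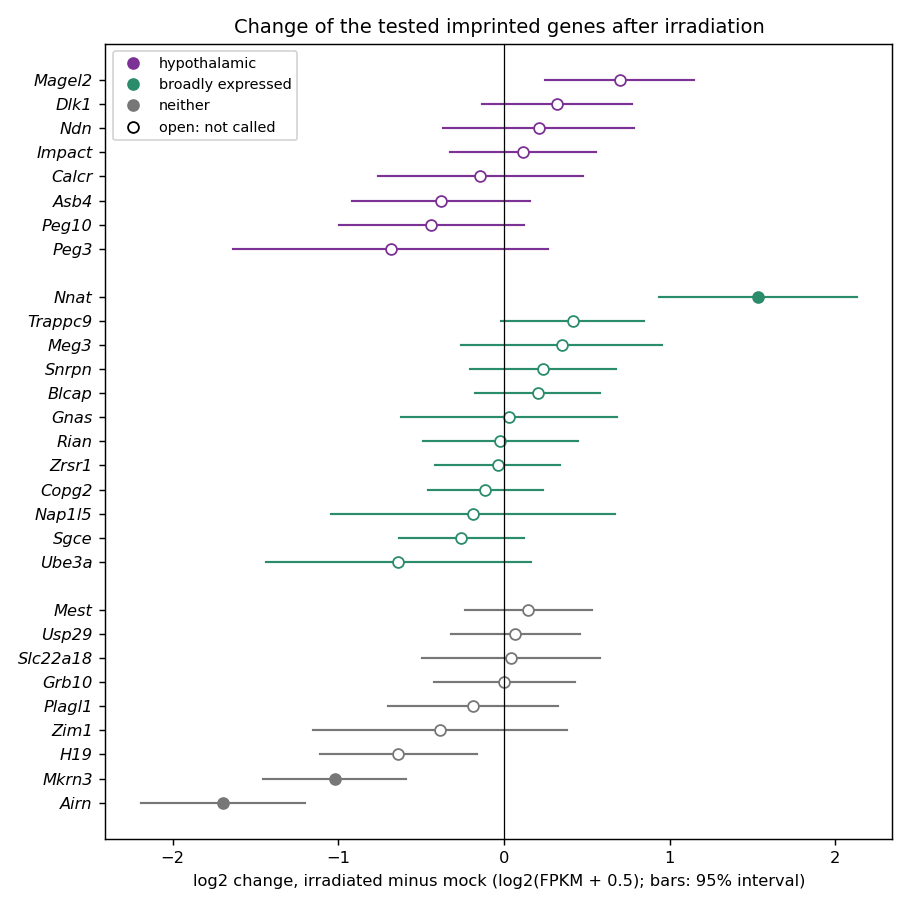
The log2 change of each tested imprinted gene, irradiated minus mock, is plotted on the x axis with its 95% interval, and the genes are grouped as hypothalamic, broadly expressed or neither. Filled points are the 3 called genes, with Nnat at 1.53, Mkrn3 at -1.02 and Airn at -1.69, and the hypothalamic genes lie on both sides of 0.

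Promoter sequence is shown for the 3 called genes and for Magel2, the hypothalamic gene whose groups did not overlap, because imprints are written on the C of CG dinucleotides. Each run is the 250 bases before the RefSeq start of the gene on GRCm38.p6, 5′ to 3′ on the gene's own strand, with each CG in capitals. The Nnat window (plus strand) is chr2:157559828-157560077, that of Mkrn3 (minus strand) chr7:62420154-62420403, that of Airn (plus strand) chr17:12741061-12741310 and that of Magel2 (plus strand) chr7:62376729-62376978.
Nnat: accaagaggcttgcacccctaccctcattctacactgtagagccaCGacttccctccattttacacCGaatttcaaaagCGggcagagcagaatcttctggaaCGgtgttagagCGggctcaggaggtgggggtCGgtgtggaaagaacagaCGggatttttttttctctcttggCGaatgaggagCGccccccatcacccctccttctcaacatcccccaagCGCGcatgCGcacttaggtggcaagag
Mkrn3: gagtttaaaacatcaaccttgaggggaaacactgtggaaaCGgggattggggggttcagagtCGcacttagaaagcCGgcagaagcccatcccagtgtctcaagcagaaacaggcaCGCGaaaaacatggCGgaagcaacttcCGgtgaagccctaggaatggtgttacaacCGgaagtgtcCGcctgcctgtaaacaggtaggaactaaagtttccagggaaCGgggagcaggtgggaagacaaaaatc
Airn: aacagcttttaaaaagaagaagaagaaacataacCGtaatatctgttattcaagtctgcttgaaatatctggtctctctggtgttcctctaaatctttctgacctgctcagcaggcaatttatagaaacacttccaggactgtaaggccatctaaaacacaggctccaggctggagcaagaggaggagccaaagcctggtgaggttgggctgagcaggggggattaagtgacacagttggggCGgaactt
Magel2: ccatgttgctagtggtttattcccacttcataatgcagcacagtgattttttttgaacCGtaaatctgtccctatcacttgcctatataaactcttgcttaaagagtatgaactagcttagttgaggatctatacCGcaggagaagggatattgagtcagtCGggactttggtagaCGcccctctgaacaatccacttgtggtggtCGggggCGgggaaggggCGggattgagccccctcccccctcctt

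These 4 windows held 12, 10, 2 and 7 CG dinucleotides respectively, beside a median of 6 over all 32851 RefSeq windows of that length. Windows were found for 28 of the 34 genes, 40 windows in all, with between 0 and 40 CG and a median of 9. The letters TGCCGC, the hexamer bound by ZFP57 when its CG is methylated, were searched on both strands. They were in 8 of the 40 windows (20.0%), beside 8.68% of all windows, and they belonged to Calcr, Copg2, Meg3, Mest, Nap1l5, Plagl1 and Zim1, with 2 overlapping windows for Mest. None of the 4 windows printed held it. The hexamer holds a CG itself, and the shares of windows with it were neither matched for CG content nor tested. Such a match is of letters only, and methylation and binding were not measured.

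Nnat encodes neuronatin, a small proteolipid of the endoplasmic reticulum that is abundant in developing and neuroendocrine cells. It lies on chromosome 2 (157560078 to 157562522, GENCODE M21 on GRCm38) inside Blcap, which is read from the opposite strand and encodes a small protein linked to bladder cancer. Nnat was at 159, 205 and 198 FPKM across mock mice, with 596, 374 and 708 FPKM across irradiated mice. Every irradiated library lay above every mock library, with irradiated 3 the highest. The group mean was 188 ± 24.7 FPKM (SD, n = 3) without irradiation and 559 ± 169.8 FPKM (SD, n = 3) with it, 2.98 times as high. The log2 change was 1.53 (SE 0.26, limma adjusted p = 0.0123). Without mock 1 it was 1.42 and was not called (limma adjusted p = 0.058).

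Blcap, the host gene, was at 62.9, 70.0 and 55.0 FPKM without and 76.3, 76.3 and 63.9 FPKM with irradiation. These groups overlapped, and the log2 change of 0.20 was not called (95% interval -0.17 to 0.58, limma adjusted p = 0.463). The log2 ratio of Nnat to Blcap, which takes out the scaling of a library, was 1.33, 1.55 and 1.84 for mock, against 2.96, 2.29 and 3.46 for irradiated libraries. It differed by 1.33 with no overlap (exact two-sided permutation p = 0.1, the smallest that 3 against 3 allows; adjusted p = 0.32 over 8 pairs of neighbours). Whether the authors' counts used the strand of the reads is not recorded in the sources used, and without it reads of the pair in shared bases cannot be told apart.

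Airn is a long non-coding RNA that is made from the paternal chromosome and silences genes around it in cis in several tissues. It covers 12741311 to 12860136 on chromosome 17, and 2 other genes of the table overlap it on the opposite strand. Its level was 9.19, 11.6 and 12.9 FPKM in mock against 4.04, 2.36 and 3.08 FPKM after irradiation. All 3 irradiated libraries were below all 3 mock libraries, and the mean was 3.56 times as high in mock (11.2 ± 1.90 FPKM) as after irradiation (3.16 ± 0.845 FPKM, each SD of n = 3). The log2 change was -1.69 (SE 0.22, limma adjusted p = 0.0033). Airn was called lower under each of the 16 alternatives run, with a log2 change from -1.86 to -1.53. As for Nnat, reads of the overlapping genes on the other strand cannot be told apart without strand.

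**Figure D2:**
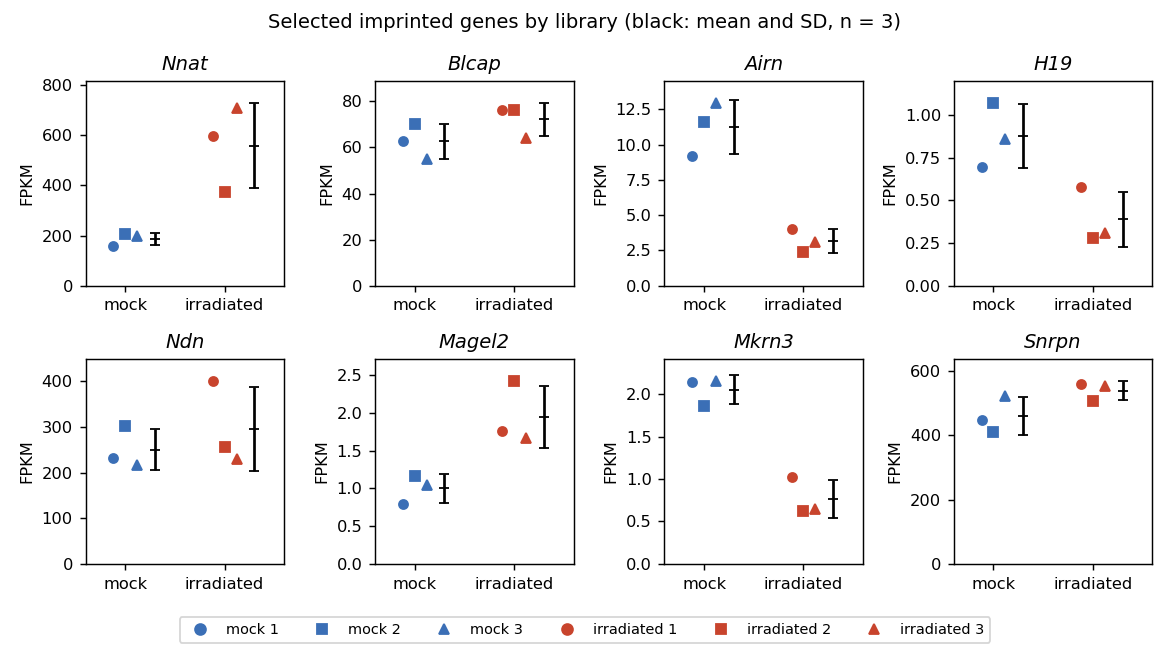
FPKM of 8 imprinted genes is plotted by library for mock (blue) and irradiated (red) mice, with 1 symbol per replicate number and the mean and SD (n = 3) in black. Nnat and Magel2 separate upwards and Airn, H19 and Mkrn3 downwards, while Blcap, Ndn and Snrpn overlap between the groups.

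In the Prader-Willi and Angelman cluster on chromosome 7, Mkrn3 fell and the other 4 listed genes tested, Magel2 among them, were not called. Loss of its paternally expressed genes causes Prader-Willi syndrome, and loss of maternal UBE3A in neurons causes Angelman syndrome. Mkrn3, a RING finger protein that restrains the onset of puberty (62417593 to 62420139), was at 2.15, 1.85 and 2.15 FPKM across mock mice, with 1.03, 0.627 and 0.650 FPKM across irradiated mice. Each irradiated value was below each mock value. Its mean was 2.67 times as high in mock (2.05 ± 0.170 FPKM) as in irradiated libraries (0.767 ± 0.223 FPKM, SD, n = 3), and the log2 change was -1.02 (SE 0.19, limma adjusted p = 0.0172). It was not called without mock 1 (limma adjusted p = 0.071), mock 3 (0.058) or irradiated 3 (0.071).

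Magel2, which directs a ubiquitin ligase to endosomes and is strongest in the hypothalamus (62377010 to 62381640), lies 35952 bases from Mkrn3. Its level was 0.788, 1.16 and 1.05 FPKM without and 1.75, 2.42 and 1.66 FPKM with irradiation. The groups did not overlap, with irradiated 2 the highest, but Magel2 missed the threshold, with a log2 change of 0.70 (SE 0.20, 95% interval 0.25 to 1.15, limma adjusted p = 0.067). With quantile normalization it was called (log2 change 0.81, adjusted p = 0.041). The log2 ratio of Magel2 to Mkrn3, a pair chosen after its values were seen, was -1.04, -0.50 and -0.78 for mock, against 0.56, 1.37 and 0.91 for irradiated libraries.

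Ndn encodes necdin, a MAGE family protein like Magel2 that acts in the survival of neurons, and 26747 bases lie between its gene and Magel2. It was far more abundant per length than Magel2, at 232, 302 and 217 FPKM in mock against 400.3, 256 and 229 FPKM after irradiation. Only irradiated 1 lay outside the mock range, and the log2 change of 0.21 was not called (95% interval -0.37 to 0.79, limma adjusted p = 0.629). The log2 ratio of Magel2 to Ndn was -7.50, -7.50 and -7.13 for mock, against -7.47, -6.46 and -6.73 for irradiated libraries, which overlapped (exact permutation p = 0.2, adjusted p = 0.32).

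Snrpn, which encodes a core protein of neuronal splicing particles and shares its transcript with Snurf, was at 447, 409.5 and 524 FPKM across mock mice, with 559, 506 and 554 FPKM across irradiated mice. Its log2 change of 0.24 (SE 0.19) was not called (limma adjusted p = 0.468). Ube3a, the ubiquitin ligase of the cluster and the gene expressed from the maternal chromosome in neurons, was at 10.5, 11.9 and 6.44 FPKM without and 3.32, 9.25 and 6.24 FPKM with irradiation. Irradiated 1 was the lowest of the 6 and mock 3 overlapped the irradiated range, and the log2 change of -0.64 (95% interval -1.44 to 0.16) was not called. Without irradiated 1 it was -0.28, and without irradiated 2 it was -0.95, also not called. The ratio of Snrpn to Ube3a overlapped between groups (log2 difference 0.87, exact permutation p = 0.2, adjusted p = 0.32). As 1 other gene of the table overlaps Ube3a on the opposite strand, the limit on strand given for Nnat applies to Ube3a and to this ratio. Peg12, a relative of a Wnt pathway regulator in the same cluster, stayed between 0.0260 and 0.102 FPKM and overlapped between groups.

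The Dlk1-Meg3 cluster on chromosome 12 makes non-coding RNAs from the maternal chromosome and proteins from the paternal one. Of the listed imprinted genes there, 3 were tested and none was called in limma (0 at an unadjusted p under 0.05). Begain, upstream of Dlk1 and from another list, was called higher and is described below. Meg3, a nuclear non-coding RNA of neurons, was at 199.8, 139.5 and 132 FPKM in mock against 142, 264 and 203 FPKM after irradiation, with a log2 change of 0.35 (95% interval -0.26 to 0.96). Rian, a non-coding host of small nucleolar RNAs downstream of Meg3, was at 135, 180.2 and 116 FPKM in mock against 134, 158 and 128 FPKM after irradiation, and had a log2 change of -0.02 (95% interval -0.49 to 0.45). The log2 ratio of Rian to Meg3, RNAs thought to come from 1 long transcription unit, lay between -0.56 and 0.37 in mock and between -0.74 and -0.09 in irradiated libraries. That spread of libraries within a group was wider than the difference between the groups, -0.37 (exact permutation p = 0.3, adjusted p = 0.4).

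Dlk1, a Notch-like membrane protein expressed in hypothalamic and midbrain neurons, was at 10.9, 11.7 and 10.4 FPKM without and 13.6, 18.0 and 10.8 FPKM with irradiation. Irradiated 3 fell within the mock range, and the log2 change of 0.32 (95% interval -0.13 to 0.78) was not called. The ratio of Dlk1 to Meg3 overlapped as well (log2 difference -0.03, exact permutation p = 0.9). Rtl1, a protein derived from a retrotransposon and needed in the placenta, did not reach the filter and stood at 0.273, 0.278 and 0.373 FPKM in mock against 0.420, 0.424 and 0.277 FPKM after irradiation.

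In the H19 and Kcnq1ot1 clusters at the end of chromosome 7, levels of the listed imprinted genes were low throughout. Genes of these clusters in the other list of imprinted genes were not all low. H19, a maternally expressed RNA that is high in the fetus and carries a growth-limiting microRNA (142575529 to 142578143), was at 0.698, 1.07 and 0.862 FPKM across mock mice, with 0.577, 0.282 and 0.307 FPKM across irradiated mice. The groups did not overlap, but its log2 change of -0.64 (SE 0.21, 95% interval -1.11 to -0.17) was not called (limma adjusted p = 0.097). In adult tissue H19 is known from meningeal and vascular cells. Markers of meninges and fibroblasts, 14 of 14 tested and none at 0, summed to 222 to 338 FPKM in mock against 235 to 315 FPKM after irradiation. Endothelial markers, 10 of 10 tested and none at 0, summed to 119 to 152 and 91.7 to 116 FPKM, so the endothelial sums did not overlap while the meningeal ones did, and their part in the H19 values was not tested.

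Kcnq1ot1, the paternal silencing RNA of its cluster, was at 0.133, 0.127 and 0.0957 FPKM without and 0.0632, 0.0850 and 0.0741 FPKM with irradiation. These values did not overlap but were below the filter, and without a filter the gene was not called (limma adjusted p = 0.33). It runs antisense to Kcnq1 on chromosome 7, over 143203458 to 143296549, so its reads are subject to the same limit on strand. Slc22a18, an organic cation transporter, lay between 0.429 and 1.04 FPKM in mock and between 0.644 and 1.02 FPKM in irradiated libraries (log2 change 0.04, 95% interval -0.49 to 0.58). Phlda2, which restrains placental growth, was the gene listed at 0 throughout.

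The Peg3 cluster on proximal chromosome 7 spread widely within the irradiated group. Peg3, a zinc finger protein linked to maternal behaviour, was at 36.5, 35.6 and 26.2 FPKM in mock against 10.2, 40.0 and 19.4 FPKM after irradiation. Irradiated 2 was thus the highest of all 6 and irradiated 1 the lowest, and the log2 change of -0.68 had a 95% interval of -1.63 to 0.27. It was -0.21 without irradiated 1 and -1.18 without irradiated 2 (limma adjusted p = 0.69 and 0.058). Zim1, a maternally expressed zinc finger gene beside it, was at 1.07, 1.88 and 1.07 FPKM across mock mice, with 0.347, 1.62 and 0.965 FPKM across irradiated mice, again with irradiated 1 the lowest. Its log2 change of -0.39 was -0.03 without irradiated 1, -0.19 without mock 2 and -0.69 without irradiated 2, and was called in none of these. Usp29, a deubiquitinase gene that starts 146 bases from Peg3 on the other strand, was at 4.07, 4.57 and 4.56 FPKM without and 4.25, 5.57 and 4.19 FPKM with irradiation, a much narrower range. The log2 ratio of Usp29 to Peg3 was -3.02, -2.83 and -2.40 for mock, against -1.17, -2.74 and -2.08 for irradiated libraries, and overlapped (exact permutation p = 0.2, adjusted p = 0.32). As 1 other gene of the table overlaps Usp29 on the opposite strand, the limit on strand given for Nnat applies to Usp29 and to this ratio.

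In the Peg10 cluster on chromosome 6, 4 listed genes were tested, all with log2 changes below 0 and none called in limma (0 at an unadjusted p under 0.05). Neighbours from the other list of imprinted genes had changes on both sides of 0, and none of them was called. Peg10, derived from a retrotransposon and able to form capsid-like particles, was at 10.5, 12.5 and 9.41 FPKM in mock against 7.01, 11.4 and 5.88 FPKM after irradiation (log2 change -0.44, SE 0.25). Sgce, the epsilon-sarcoglycan gene of myoclonus dystonia, starts 98 bases away on the other strand and was at 17.4, 21.7 and 23.0 FPKM across mock mice, with 19.01, 16.5 and 16.0 FPKM across irradiated mice (log2 change -0.26, 95% interval -0.64 to 0.12). Their ratio overlapped (log2 difference -0.18, exact permutation p = 0.8, adjusted p = 0.9), so the 2 genes that share a start region were not separated from each other by group.

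Asb4, an adaptor of a ubiquitin ligase in arcuate neurons, was at 0.682, 1.59 and 1.10 FPKM without and 0.839, 0.720 and 0.603 FPKM with irradiation. Calcr, the receptor of calcitonin and amylin in hypothalamus and brainstem, was at 0.262, 0.955 and 0.491 FPKM in mock against 0.647, 0.395 and 0.296 FPKM after irradiation. Mock 2 had the highest value of both genes, and neither was called (log2 change -0.38, adjusted p = 0.347, and -0.14, adjusted p = 0.768, in limma).

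Hypothalamic members were set against broadly expressed ones, with both classes assigned from textbook knowledge, though with earlier results of these data known. Of the 8 hypothalamic genes (Asb4, Calcr, Dlk1, Impact, Magel2, Ndn, Peg10 and Peg3), 0 were called in limma, beside 7.72% of all genes. At a limma p under 0.05 before adjustment 1 was higher and 0 lower, beside 1705 higher and 2033 lower of all 14585 genes tested. Log2 changes of the 8 hypothalamic genes were positive for 4 and negative for 4, with a median of -0.01. The 12 broadly expressed genes tested were Blcap, Copg2, Gnas, Meg3, Nap1l5, Nnat, Rian, Sgce, Snrpn, Trappc9, Ube3a and Zrsr1. Of these 1 was higher and 0 were lower (8.33%), with 6 changes on each side of 0 and a median of 0.01. The 1 called was Nnat, described above as abundant in neuroendocrine cells, so that count rests on the class given to Nnat. Both medians lay close to the one of -0.02 over all genes, and counts of 0 of 8 and 1 of 12 at that background do not set the classes apart. Impact, an inhibitor of the kinase GCN2 that is enriched in hypothalamic neurons, was at 79.2, 83.9 and 80.7 FPKM across mock mice, with 91.3, 109 and 68.8 FPKM across irradiated mice, so the irradiated values lay on both sides of the mock ones.

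Library by library, the median of the 8 hypothalamic genes, each centred on its own mean, was -0.19, 0.31 and -0.03 for mock, against 0.12, 0.33 and -0.30 for irradiated libraries on the log2 scale. The libraries of 1 group therefore spread more widely than the groups differed. For the 12 broadly expressed genes the medians were tighter, at -0.10, -0.02 and -0.07 for mock, against 0.00, 0.09 and 0.10 for irradiated libraries. Each irradiated median of the broadly expressed genes lay above each mock median, while their median log2 change was 0.01 as deposited and -0.13 with quantile normalization.

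Several markers of the hypothalamus itself were at or near 0. Hcrt and Pmch, named after their values were seen, which encode the peptides orexin and MCH of the lateral hypothalamus, did not exceed 0.264 and 0.901 FPKM in any library, and Hcrt was listed at 0 in 3 of them. Others of the list were present in every library, such as Trh (6.94 to 35.0 FPKM) and Tac2 (6.06 to 17.2 FPKM), neither of them called. Of 24 hypothalamus markers 14 were tested, 3 were higher and 2 lower (Crh and Gal), and 9 had a value of 0 in at least 1 library. Their sum was 255 to 465 FPKM in mock against 791 to 1558 FPKM after irradiation, of which Sst gave 179 to 363 and 610 to 1446 FPKM. The 3 that rose were Sst, Cartpt and Lhx6. Neither the markers that rose nor those that fell need be confined to the hypothalamus. The part of these markers in the values of the hypothalamic imprinted genes was not tested.

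**Figure D3:**
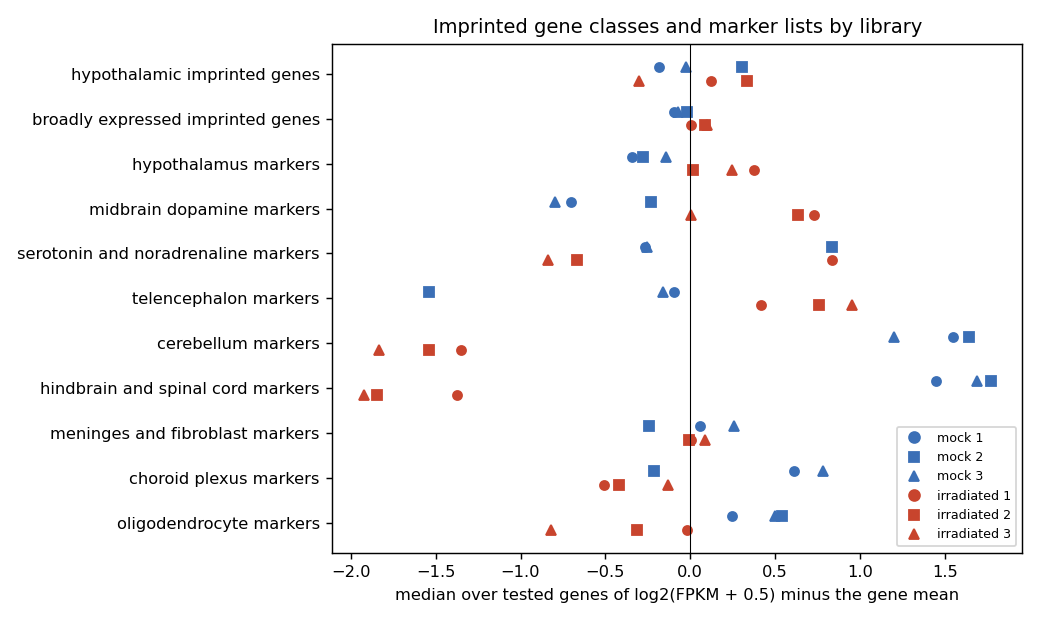
For each library the median over tested genes of log2(FPKM + 0.5) minus the gene's mean is plotted on the x axis, for the hypothalamic and broadly expressed imprinted genes and for 9 marker lists. Cerebellum and hindbrain markers separate the groups by more than 2 on the log2 scale, while the hypothalamic imprinted genes overlap between -0.30 and 0.33.

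None of the imprinted genes described next was called. Gnas, which encodes the stimulatory G protein alpha subunit and several imprinted transcripts summed here, was the most abundant, at 1520.3, 1513 and 2478 FPKM without and 1791, 1606 and 2121 FPKM with irradiation. Nap1l5, a relative of histone chaperones within Herc3, varied widely within both groups, at 281, 539 and 239 FPKM in mock against 394, 344 and 182 FPKM after irradiation. Their groups overlapped, with log2 changes of 0.03 and -0.19. Gnas and Nap1l5 are each overlapped by 1 other gene of the table on the opposite strand, so the limit on strand given for Nnat applies. Trappc9, a subunit of a vesicle tethering complex, was at 33.4, 25.3 and 37.7 FPKM across mock mice, with 43.9, 37.4 and 46.6 FPKM across irradiated mice. Its log2 change of 0.42 (95% interval -0.02 to 0.85) did not pass, and irradiated 2 lay just below mock 3.

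Mest, a hydrolase-like protein of mesoderm and neurons, was at 6.85, 5.85 and 6.34 FPKM without and 5.99, 7.40 and 7.96 FPKM with irradiation. Copg2, a coat protein subunit of Golgi vesicles whose gene shares 912 bases with Mest on the other strand, was at 24.9, 27.4 and 28.6 FPKM in mock against 22.1, 25.9 and 26.8 FPKM after irradiation. The log2 ratio of Mest to Copg2 had the smallest spread of the 8 pairs and differed by 0.26 with overlap (exact permutation p = 0.2, adjusted p = 0.32). Grb10, an adaptor that dampens insulin signalling, lay between 12.8 and 14.5 FPKM in mock and between 11.0 and 17.0 FPKM in irradiated libraries. Plagl1, a zinc finger factor that regulates other imprinted genes, lay between 3.74 and 4.64 FPKM in mock and between 2.47 and 4.54 FPKM in irradiated libraries. Zrsr1, a splicing factor gene within Commd1, ranged from 19.1 to 23.7 and from 17.8 to 22.7 FPKM. Each of these 5 genes overlapped between the groups and had a log2 change within 0.2 of 0. As 1 other gene of the table overlaps each of Mest, Copg2 and Zrsr1 on the opposite strand, the limit on strand given for Nnat applies to them. It applies to the ratio of Mest to Copg2 and its spread as well.

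**Figure D4:**
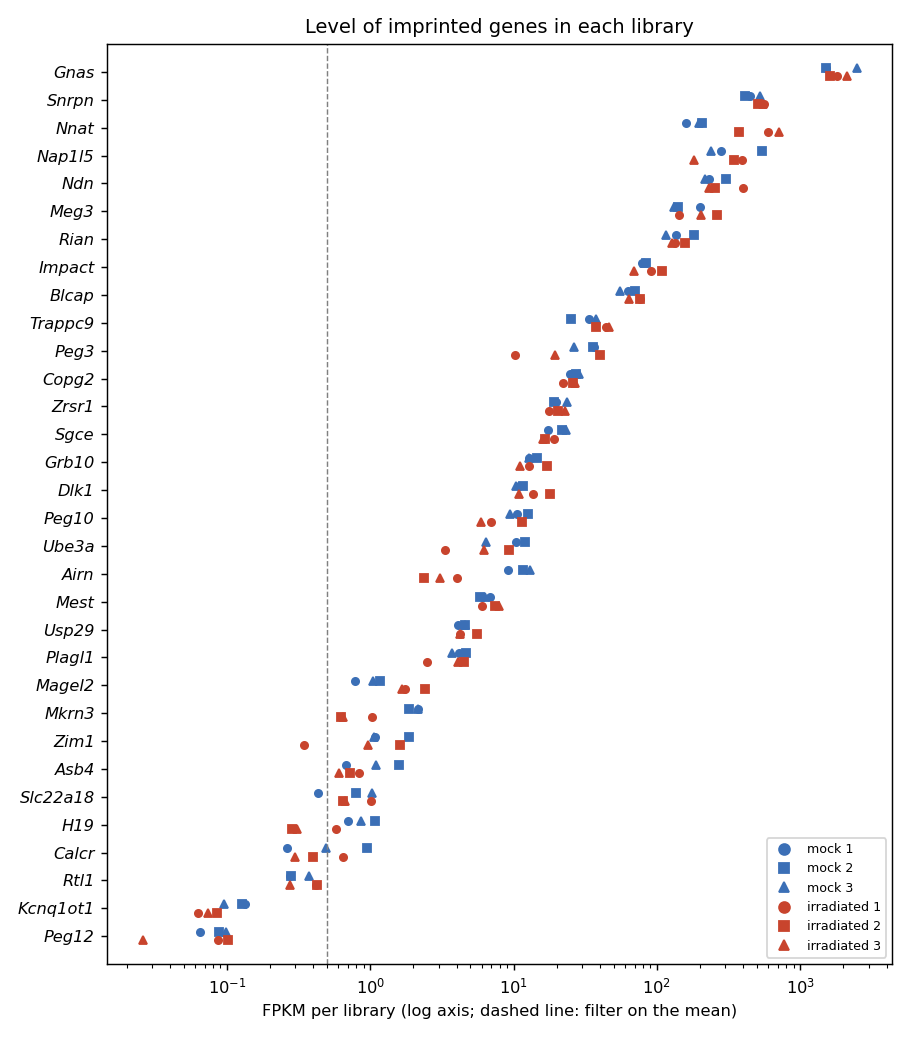
FPKM of 32 imprinted genes is plotted on a log axis for each library, ordered by the mean, with mock in blue, irradiated in red and the filter of 0.5 FPKM on the mean as a dashed line. Levels run from 0.0260 FPKM for Peg12 to 2478 FPKM for Gnas, and Peg3, Ube3a and Zim1 have irradiated 1 well to the left of the other libraries.

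By the parental allele that textbooks give, 17 of the tested genes were paternal and 11 maternal, with Gnas giving transcripts from both. Of the paternal genes 1 was called higher and 2 lower (17.6%), and of the maternal genes 0 were called in limma, beside 7.72% of all genes. At a limma p under 0.05 before adjustment, 0 maternal genes were higher and 1 lower. The paternal genes had 2 higher and 2 lower there, beside 1705 higher and 2033 lower of all 14585 genes tested. With so few genes these counts do not set the alleles apart. Median log2 changes were 0.00 for the paternal and -0.11 for the maternal genes. A difference between the alleles was not tested.

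Differences between libraries of a group went with transcript length, in both groups. Against the mean of the other 2 irradiated libraries, the log2 level of the 29 genes in irradiated 1 had a Spearman correlation of -0.78 with the length of the longest GENCODE transcript, and over 14052 annotated genes of those tested it was -0.54. In irradiated 2 the correlations were 0.74 and 0.57, and in irradiated 3 they were 0.05 and 0.13. Computed likewise within the mock group, they were 0.48 and 0.47 in mock 1, 0.06 and -0.08 in mock 2, and -0.50 and -0.34 in mock 3. With the GC content of the transcript the correlations over all genes were largest in mock 2 (-0.48) and mock 3 (0.44). The points of a plot share 1 library, so these are descriptions across genes. Peg3, Ube3a and Zim1, with transcripts of 8694, 9856 and 7693 bases, were the 3 genes furthest below in irradiated 1. After a lowess correction of each library for length and GC content, chosen after seeing the data, their log2 changes were -0.45, -0.24 and -0.09 in place of -0.68, -0.64 and -0.39. Under that correction Nnat (1.25), Mkrn3 (-1.06) and Airn (-1.76) were called as before, and Meg3 (0.59, limma adjusted p = 0.020) and H19 (-0.81, limma adjusted p = 0.041) were called as well.

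**Figure D5:**
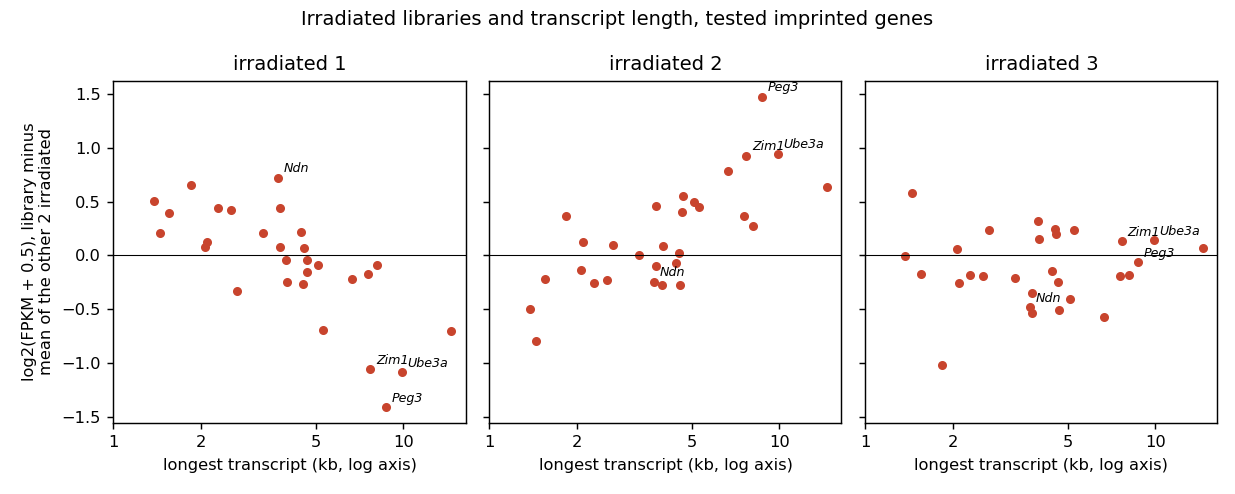
For each irradiated library, log2(FPKM + 0.5) minus the mean of the other 2 irradiated libraries is plotted against the length of the longest transcript (kilobases, log axis) for the 29 tested imprinted genes. Long transcripts lie low in irradiated 1 and high in irradiated 2, and Peg3, Ube3a, Zim1 and Ndn are labelled.

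Of 40 other imprinted genes or neighbours in imprinted clusters, listed by name, 31 were tested, with 1 called higher and 1 lower (6.45%, beside 7.72% of all genes) and a median log2 change of -0.11. At a limma p under 0.05 before adjustment 6 of the 31 were higher and 6 lower, beside 1705 higher and 2033 lower of all 14585 genes tested. The groups did not overlap in 12 of the 31 (38.7%, beside 31.5% of all genes). Begain, a synaptic protein gene upstream of Dlk1, rose by 0.88 on the log2 scale (SE 0.22, limma adjusted p = 0.048), with means of 42.9 ± 11.3 and 77.9 ± 11.9 FPKM (SD, n = 3). Cdh15, a cadherin of cerebellar granule cells and muscle, fell by 1.72 on that scale (SE 0.22, limma adjusted p = 0.0034), with means of 9.12 ± 1.76 and 2.45 ± 0.677 FPKM. Cerebellum markers were lower in the irradiated group too, and any link between them and Cdh15 was not tested. Another list of 24 genes held factors that establish or keep imprints, such as DNA methyltransferases and zinc finger repressors. It also held methylcytosine dioxygenases, which oxidise methylated C. Of the 24, 19 were tested and 0 were called in limma, beside 7.72% of all genes. Before adjustment 1 of the 19 was higher and 2 lower at p under 0.05, beside 1705 higher and 2033 lower of all 14585 genes tested. The smallest limma p-values of the 19 were those of Ehmt2 and Tet1. Ehmt2, a histone methyltransferase, had a log2 change of 0.81 (adjusted p = 0.065), and Tet1, a methylcytosine dioxygenase, one of -0.72 (adjusted p = 0.081).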

How the data were processed

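RNA-seq of 6 brain libraries was deposited as 1 table of FPKM per gene. Per the submitters' processing notes the authors used TopHat, Cufflinks and Cuffdiff with mm10; their versions, settings, annotation and use of strand are not given in the sources used. A repeated header line was removed. No ratio between libraries was shared by more than 2.20% of genes under 0.05 FPKM, so depth is unknown. Groups came from the sample labels. P-values measure the spread between these samples.

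From the deposited FPKM, log2(FPKM + 0.5) was, for genes averaging at least 0.5 FPKM, tested with limma 3.58.1 in R 4.3.3 (trended variance, Benjamini-Hochberg adjusted p under 0.05). Pairs of neighbouring genes were tested with the exact two-sided permutation test over libraries, adjusted over 8 pairs. On simulated data with 14585 genes, this fit of irradiated against mock recovered 40% of genes given a log2 change of 1 and 83% of those given 2, while 3.15% of calls were unchanged genes. The simulation drew independent noise for each gene and changed only a small share of genes. It held no differences between libraries that go with transcript length, so its rates need not hold for these data.

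Coordinates and lengths are from GENCODE M21 (GRCm38) and promoters from RefSeq (GRCm38.p6). The imprinted genes, their classes and the marker lists were chosen with earlier results of these data known. All 34 listed imprinted genes are accounted for. The list left out the imprinted genes Igf2, Igf2r, Cdkn1c, Dio3 and Ddc, so the clusters described were not covered in full. From other lists only called genes, or failing these the 2 with the smallest p, are named as results. Markers at or near 0 are named for that, and Trh and Tac2 as markers of the same list that were present. Alternatives were other pseudocounts, filters and normalizations, a robust fit, a replicate block, each library left out and, chosen after seeing the data, mock 2 and irradiated 1 left out together and a correction for transcript length and GC content (lowess, span 0.3).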

Additional observations from a re-analysis of the deposited data

How the results depend on the processing

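Depth is unknown, so no counting interval can be given, and 3 libraries a group set the precision. Across the alternatives none of the results changed direction while called. With quantile normalization 2 imprinted genes were higher and the median log2 change of the broadly expressed ones was -0.13. With the length and GC correction 2 were higher, that median was 0.087 and 829 of all genes were higher. With mock 2 and irradiated 1 both left out the median was 0.062. Leaving out each library in turn gave 0 to 1 imprinted genes higher and 1 to 2 lower, 148 to 671 of all genes higher and 254 to 684 lower, and medians of -0.13 to 0.13 for the hypothalamic and -0.065 to 0.15 for the broadly expressed genes. The counts over all genes, 508 higher and 618 lower with every library, moved by over 1.5 times without mock 1 (184 and 254), mock 2 (192 and 291), mock 3 (306 and 344) or irradiated 3 (148 and 259), and the cause was not tested. A group of 2 is assumed there to vary like the other. Replicate numbers did not pair the libraries (correlations of same-numbered deviations -0.33, 0.193 and 0.202). A replicate block gave 394 of all genes lower and called 1 imprinted gene higher and 2 lower.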
